A study of Mus musculus with 11 samples.

Results

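The genes described here were 10 transcripts for which the choroid plexus is a known source: the secreted carrier and enzyme genes Ttr and Enpp2, the growth factor gene Igf2 and the binding protein gene Igfbp2, the hormone and receptor genes Kl and Prlr, the secreted inhibitor gene Sostdc1, the coagulation factor gene F5, the transcription factor gene Otx2 and the calmodulin-like gene Calml4. They were chosen by name, with earlier results of these data known, from the 54532 genes of a count table. All 10 had enough counts to be tested. The tissue was dissected lateral habenula, an epithalamic nucleus beside the third ventricle, from 3-month-old BALB/c mice. In the CAIA groups (collagen antibody-induced arthritis), 5 monoclonal antibody clones against type II collagen were injected at 50 mg/kg, and lipopolysaccharide (LPS) at 1 mg/kg came 3 days later. The Ctrl groups received vehicle, so arthritis and LPS exposure cannot be told apart. There were 3 female CAIA, 3 female Ctrl, 3 male CAIA and 2 male Ctrl libraries, with 25317306 to 29565006 counts each. Nothing in the labels says that each library came from its own animal, so the p-values cover only how far these libraries vary, and part of that variation may be technical.

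The choroid plexus is a sheet of secretory epithelium on a vascular stroma that hangs in the ventricles and makes most of the cerebrospinal fluid. Its epithelial cells release transthyretin, which carries thyroid hormone and, with retinol-binding protein, vitamin A, and they pass growth factors, hormones and their binding proteins into the fluid. The plexus of the third ventricle is attached to the roof above the habenula, so a habenular dissection can include some of it.

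Ttr, the transthyretin gene, was by far the most abundant of the 10 in Ctrl tissue. On chromosome 18 (20665280 to 20674321, GRCm38), it had 29.2, 27.0 and 29.8 CPM (counts scaled to library size with TMM factors) in female CAIA libraries 1 to 3, against 1469, 1996 and 3289 CPM in female Ctrl libraries 1 to 3. In males it had 65.6, 1188 and 305 CPM in CAIA libraries 1 to 3, against 2704 and 2577 CPM in Ctrl libraries 1 and 3. Every CAIA library was below every Ctrl library, but male CAIA 2 came close to the lowest Ctrl library, while the 3 female CAIA libraries lay close together near the bottom. The CAIA means were 1.27% of the Ctrl mean in females and 19.7% in males. The fitted log2 fold change, CAIA over Ctrl with both sexes weighted equally, was -4.32 ± 0.71 (SE), which did not pass the threshold of 0.05 (adjusted p = 0.0620 in edgeR's quasi-likelihood test over 19619 genes). Without male CAIA 2 it was -5.07 with an adjusted p of 0.00601, and without male CAIA 1 it was -4.06 with an adjusted p of 0.0172, so single libraries set the side of the threshold. In bulk tissue, fewer choroid plexus cells in a dissection and less RNA per cell cannot be told apart.

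**Figure D1:**
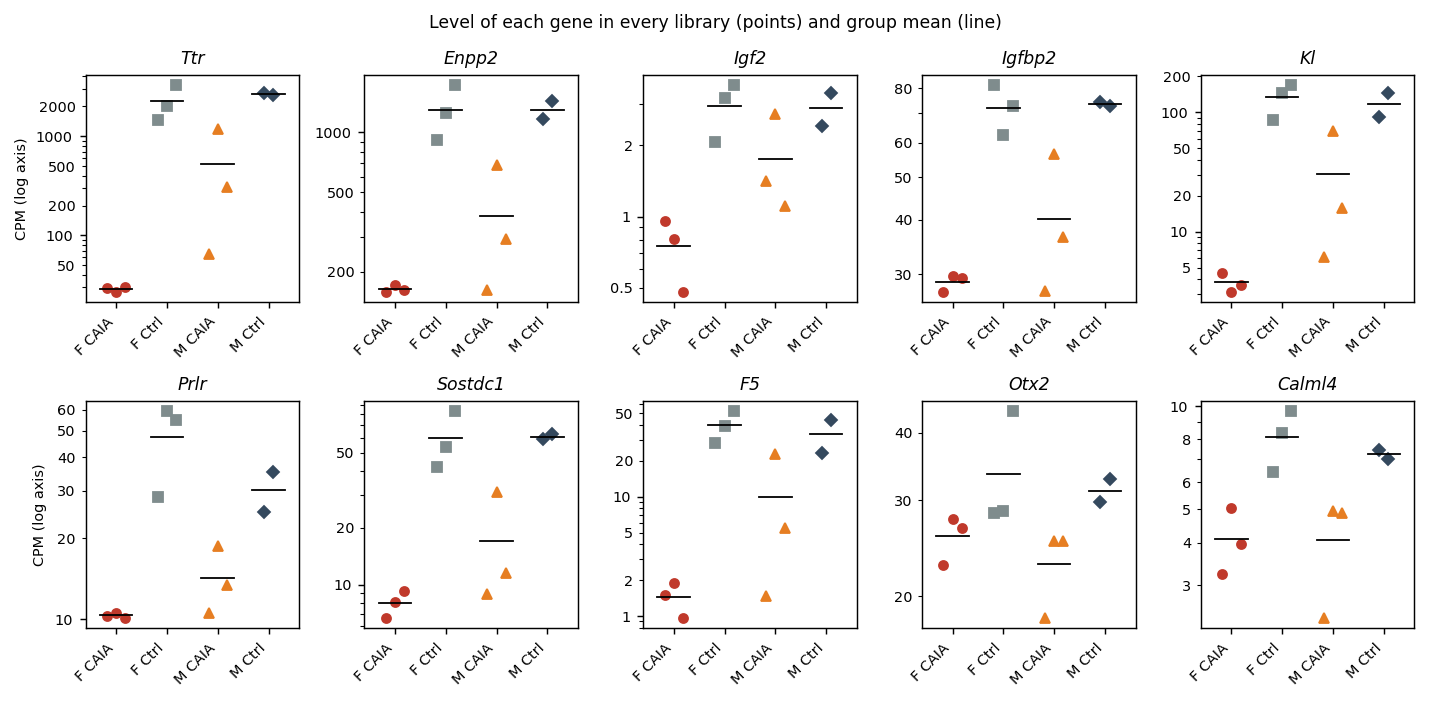
CPM on a log axis for each of the 10 genes in every library, with points for libraries and lines for group means (3 female CAIA, 3 female Ctrl, 3 male CAIA and 2 male Ctrl). The female CAIA points lie closer together than the male CAIA points, by little for Igf2, Otx2 and Calml4. Male CAIA replicate 2 is the highest CAIA point for 8 of the genes, Otx2 and Calml4 being the exceptions.

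Enpp2 (chromosome 15, 54838901 to 54952892) encodes autotaxin, the secreted lysophospholipase D that makes lysophosphatidic acid. It had 159, 172 and 162 CPM in female CAIA libraries, against 913, 1252 and 1733 CPM in female Ctrl libraries. The male CAIA libraries had 162, 686 and 293 CPM, against 1163 and 1431 CPM in male Ctrl libraries. No CAIA library reached the lowest Ctrl library, and male CAIA 1 was as low as the females. Enpp2 fell by 2.38 ± 0.37 on the log2 scale (SE, adjusted p = 0.0440). The call was lost in edgeR when any 1 library other than male CAIA 1 or male CAIA 2 was left out, with adjusted p of 0.0603 to 0.166 and log2 fold changes of -2.48 to -2.25. Among the other 9 genes of lysophosphatidic acid signalling, none passed, and the 2 with the lowest p, the phosphatase gene Plpp1 and the receptor gene Lpar6, had log2 fold changes of -0.14 ± 0.07 and -0.27 ± 0.16 (SE).

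The other carriers of thyroid hormone and retinol were a group of 9 tested genes, of which 2 passed, both lower, with a median log2 fold change of 0.04 for the list against 0.000175 for all genes. Slco1c1, a thyroxine transporter of brain capillaries and choroid plexus, had 36.9 to 44.1 CPM in CAIA libraries, against 54.1 to 65.3 CPM in Ctrl libraries. It fell by 0.50 ± 0.07 (log2, SE, adjusted p = 0.00528), a call that was lost only without female CAIA 2 and male CAIA 3 together (adjusted p = 0.0674).

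Igfbp2 (chromosome 1, 72824503 to 72852474), which encodes a secreted binding protein for insulin-like growth factors, moved less than Ttr and Enpp2 but more evenly. Its CPM was 27.4, 29.7 and 29.5 in female CAIA libraries, against 81.3, 62.4 and 72.9 in female Ctrl libraries. In males it was 27.5, 56.7 and 36.6 in CAIA libraries, against 74.3 and 72.9 in Ctrl libraries. The groups did not overlap in either sex. Igfbp2 fell by 1.10 ± 0.16 (log2, SE, adjusted p = 0.0120). The call was lost without male Ctrl 1 (adjusted p = 0.131), male Ctrl 3 (0.0624), female Ctrl 3 (0.0552) or female CAIA 3 (0.0538), with a log2 fold change of -1.11 to -1.10.

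Igf2, the insulin-like growth factor 2 gene (chromosome 7, 142650766 to 142666816), was the least abundant of the 10 per length, with 14 to 106 counts per library, and is also made by the meninges. It had 0.960, 0.802 and 0.481 CPM in female CAIA libraries, against 2.06, 3.18 and 3.61 CPM in female Ctrl libraries. In males it had 1.42, 2.71 and 1.11 CPM in CAIA libraries, against 2.41 and 3.33 CPM in Ctrl libraries. Male CAIA 2 was above the lowest Ctrl library of each sex, so Igf2 was the only member whose groups overlapped. It fell by 1.35 ± 0.26 (log2, SE, adjusted p = 0.0286) over both sexes, and the call held without female Ctrl 1 or male CAIA 2 only, with adjusted p of 0.0591 to 0.0990 without any other single library. Of the other 11 tested genes of the insulin-like growth factor system, 1 passed, the binding protein gene Igfbp7, which fell by 0.38 ± 0.08 (log2, SE, adjusted p = 0.0395). Igfbp7 had 31.6 to 32.2 CPM in CAIA libraries, against 35.1 to 49.5 CPM in Ctrl libraries, and its call was lost without any 1 library except male Ctrl 3 or female Ctrl 3 (adjusted p = 0.0580 to 0.172).

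Kl (chromosome 5, 150952607 to 150993817) encodes klotho, the co-receptor of FGF23 that is also shed as a circulating protein. Kl had 4.52, 3.14 and 3.61 CPM in female CAIA libraries, against 85.6, 143 and 169 CPM in female Ctrl libraries. Male CAIA libraries had 6.16, 69.0 and 15.7 CPM, against 91.3 and 144 CPM in male Ctrl libraries. The groups did not overlap, and the order of the male CAIA libraries was that of Ttr. Its log2 fold change was -3.55 ± 0.62 (SE, adjusted p = 0.0784), and without male CAIA 2 it was -4.29 with an adjusted p of 0.00145. None of the other 6 tested klotho and FGF receptor genes passed, with log2 fold changes of -0.20 ± 0.08 for Fgfr2 and 0.15 ± 0.08 for Fgfr3 (SE).

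Prlr, the prolactin receptor gene (chromosome 15, 10177238 to 10349180), had nearly the same level in all 3 female CAIA libraries. It was at 10.3, 10.6 and 10.1 CPM there, against 28.5, 59.2 and 54.7 CPM in female Ctrl libraries. In males it was at 10.5, 18.6 and 13.4 CPM in CAIA libraries, against 25.1 and 35.2 CPM in Ctrl libraries. No CAIA library reached a Ctrl library. Prlr fell by 1.65 ± 0.21 (log2, SE), with the lowest adjusted p of the 10 (0.0118). The call was lost without male Ctrl 1 (adjusted p = 0.0604), male Ctrl 3 (0.0505), female CAIA 1 (0.0533) or female CAIA 3 (0.0538). None of the other 8 tested genes of prolactin and growth hormone signalling passed, and the feedback inhibitor genes Socs3 and Cish had log2 fold changes of -0.29 ± 0.16 and -0.20 ± 0.12 (SE).

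Sostdc1 (chromosome 12, 36314139 to 36318452) encodes a secreted inhibitor of BMP and Wnt signalling. It had 6.65, 8.06 and 9.31 CPM in female CAIA libraries, against 42.2, 54.0 and 83.2 CPM in female Ctrl libraries. In males it had 8.96, 30.9 and 11.5 CPM in CAIA libraries, against 59.2 and 62.7 CPM in Ctrl libraries. The groups did not overlap, and Sostdc1 fell by 2.37 ± 0.35 (log2, SE, adjusted p = 0.0377). The call was lost without either male Ctrl, female Ctrl 2 or 3, male CAIA 3 or any female CAIA library, with adjusted p of 0.0757 to 0.156. Of 14 tested BMP and Wnt genes, 1 passed, the ligand gene Bmp6, which fell by 0.38 ± 0.08 (log2, SE, adjusted p = 0.0377). Bmp6 had 21.1 to 27.1 CPM in CAIA libraries, against 26.6 to 34.5 CPM in Ctrl libraries, so its groups overlapped, and its call held without female Ctrl 1 or male CAIA 2 only (adjusted p = 0.0560 to 0.121 without any other library).

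F5 (chromosome 1, 164151838 to 164220277) encodes coagulation factor V, the cofactor of factor X in making thrombin. It had 1.49, 1.88 and 0.962 CPM in female CAIA libraries, against 28.1, 39.4 and 52.3 CPM in female Ctrl libraries. In males it had 1.46, 22.7 and 5.46 CPM in CAIA libraries, against 23.1 and 44.1 CPM in Ctrl libraries. Male CAIA 2 was just below male Ctrl 1, and the other 5 CAIA libraries were far below any Ctrl library. The log2 fold change of F5 was -3.28 ± 0.65 (SE, adjusted p = 0.130), and it was -4.03 with an adjusted p of 0.00410 without male CAIA 2. Of 12 listed coagulation genes beside it, 7 were tested and none passed, with log2 fold changes of 0.22 ± 0.09 for the thrombin receptor gene F2r and -0.30 ± 0.13 for the thrombomodulin gene Thbd (SE).

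Otx2 (chromosome 14, 48657677 to 48673819), a homeodomain factor needed for choroid plexus development and also made in the pineal gland, changed least. It had 22.8, 27.8 and 26.7 CPM in female CAIA libraries, against 28.4, 28.7 and 43.8 CPM in female Ctrl libraries. In males it had 18.2, 25.2 and 25.3 CPM in CAIA libraries, against 29.8 and 32.8 CPM in Ctrl libraries. The groups did not overlap, but the highest CAIA library and the lowest Ctrl library were almost level. Its log2 fold change was -0.42 ± 0.13 (SE, adjusted p = 0.355). Counts of the antisense gene Otx2os1, which shares 154 exonic bases with Otx2, came to 231 over all libraries, and the strand setting of the counting is not given in the sources used here.

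Calml4 (chromosome 9, 62858080 to 62875921) encodes a calmodulin-like light chain of the complex that links the tips of microvilli, known from intestine and kidney. It had 3.24, 5.06 and 3.95 CPM in female CAIA libraries, against 6.42, 8.37 and 9.67 CPM in female Ctrl libraries. In males it had 2.41, 4.95 and 4.89 CPM in CAIA libraries, against 7.45 and 7.02 CPM in Ctrl libraries. The groups did not overlap in either sex. Calml4 fell by 0.91 ± 0.19 (log2, SE, adjusted p = 0.0409), and the call held without female Ctrl 1, male CAIA 1 or male CAIA 2 only (adjusted p = 0.05 to 0.190 otherwise). Of 5 other genes of the tip-link complex, 2 were tested and neither passed: Cdhr2 had a log2 fold change of 0.74 ± 0.37 and Ush1c of 0.04 ± 0.22 (SE).

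Over both sexes, 6 of the 10 genes passed, all lower in CAIA: Enpp2, Igf2, Igfbp2, Prlr, Sostdc1 and Calml4. Of all genes tested, 0.576% passed in that direction and 0.0204% in the other. The 10 were chosen with earlier results of these data known, so such shares are a description only. All 10 had an unadjusted p under 0.05, against 6.36% of all genes. The 3 genes with the largest fold changes, Ttr, Kl and F5, were not among the 6. The median log2 fold change of the 10 was -2.01, against 0.000175 over all genes tested. In 9 of the 10, every CAIA library was below every Ctrl library, which held for 1.01% of all genes, while 0.168% were higher in every CAIA library. The count of 6 depended on single libraries: it was 0 without male Ctrl 1, male Ctrl 3 or female CAIA 3, 1 without female Ctrl 3 or female CAIA 1, 2 without female Ctrl 2, female CAIA 2 or male CAIA 3, and 9 without male CAIA 2, where 0.849% of all genes were called lower. The fits without a male Ctrl library leave only 1 in that group and are not compared here. In the fits listed next, calls over all genes fell too, from 0.576% lower with all libraries. They were 0.205% without female CAIA 3, 0.35% without female Ctrl 3 and 0.221% without female CAIA 1. Without female Ctrl 2, female CAIA 2 or male CAIA 3 they were 0.343%, 0.35% and 0.273%. The log2 fold change of each of the 10 genes was negative in every one of these fits.

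**Figure D2:**
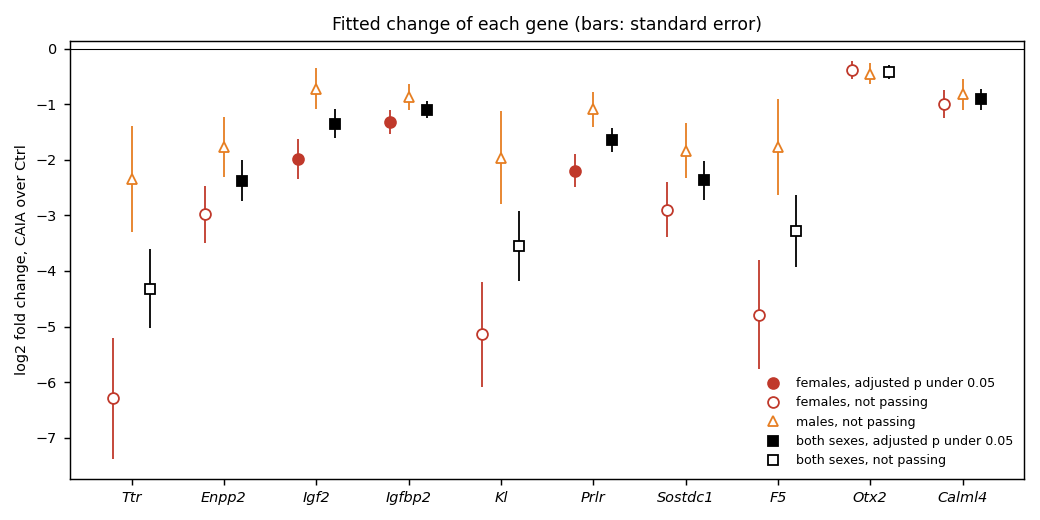
Fitted log2 fold change, CAIA over Ctrl, with its standard error for each gene in females, in males and over both sexes. Filled symbols have an adjusted p under 0.05: the value for both sexes of Enpp2, Igf2, Igfbp2, Prlr, Sostdc1 and Calml4, and the female value of Igf2, Igfbp2 and Prlr.

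In females alone, 3 of the 10 passed, where 0.255% of all genes were called lower and 0.0051% higher. An unadjusted p under 0.05 was found for all 10, against 5.22% of all genes. Igf2 fell by 1.98 ± 0.36, Igfbp2 by 1.32 ± 0.21 and Prlr by 2.20 ± 0.30 (log2, SE), with adjusted p of 0.0362, 0.0362 and 0.0269. Larger female fold changes did not pass: Ttr had -6.29 ± 1.09 (adjusted p = 0.111), Kl -5.14 ± 0.94 (0.128) and F5 -4.79 ± 0.98 (0.189). The female CAIA libraries were below the female Ctrl libraries for all 10 genes and for 6.39% of all genes, with 5.08% of all genes above. Leaving out libraries gave between 0 and 9 passing genes: 0 without female Ctrl 3, male CAIA 3 or any female CAIA library, 1 without female Ctrl 2 or either male Ctrl library, 8 without male CAIA 2, where 0.53% of all genes were called lower, and 9 without male CAIA 1, where 0.517% were. Fewer of all genes passed too without female Ctrl 2 or 3, male CAIA 3 or any female CAIA library. The fits without a male Ctrl library leave only 1 in that group and are not part of this comparison. The share called lower was 0.00515% without female Ctrl 3, 0.124% without male CAIA 3 and 0.148% without female Ctrl 2. It was 0% without any 1 of the female CAIA libraries. A fit of the 6 female libraries alone gave 8 of the 10, where 0.58% of all genes were called lower.

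In males, none of the 10 passed in edgeR, where 0.0% of all genes were called lower, while 8 had an unadjusted p under 0.05, against 5.63% of all genes. DESeq2 called 1, Igfbp2, where it called 0.199% of all genes lower and 0.229% higher. Without male CAIA 2, edgeR called 3, Enpp2, Igfbp2 and Sostdc1, where 0.185% of all genes were called lower. The male log2 fold changes were all negative, between -2.35 ± 0.96 for Ttr and -0.45 ± 0.19 for Otx2 (SE). Without male CAIA 2 they were -3.84 for Ttr, -3.43 for Kl and -3.27 for F5, which did not pass (adjusted p = 0.264, 0.0861 and 0.204), and -2.52 for Enpp2, -2.58 for Sostdc1 and -1.21 for Igfbp2, which did (0.0193, 0.00903 and 0.00474). In 9 of the 10, all but Igf2, the male CAIA libraries were below both male Ctrl libraries, as they were for 8.51% of all genes, with 9.18% of all genes above.

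The female effect minus the male effect was -3.95 ± 1.38 for Ttr, -3.18 ± 1.25 for Kl, -3.01 ± 1.32 for F5, -1.26 ± 0.52 for Igf2 and -1.11 ± 0.43 for Prlr (log2, SE). None of the 10 differences passed (adjusted p = 0.978 to 0.991 in edgeR, with 0.0% of all genes called in either direction). An unadjusted p under 0.05 was found for 4, Ttr, Igf2, Kl and Prlr, against 4.11% of all genes, and neither DESeq2 nor limma-voom called any. Without male CAIA 2 the difference was -2.46 for Ttr and -1.72 for Kl.

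**Figure D3:**
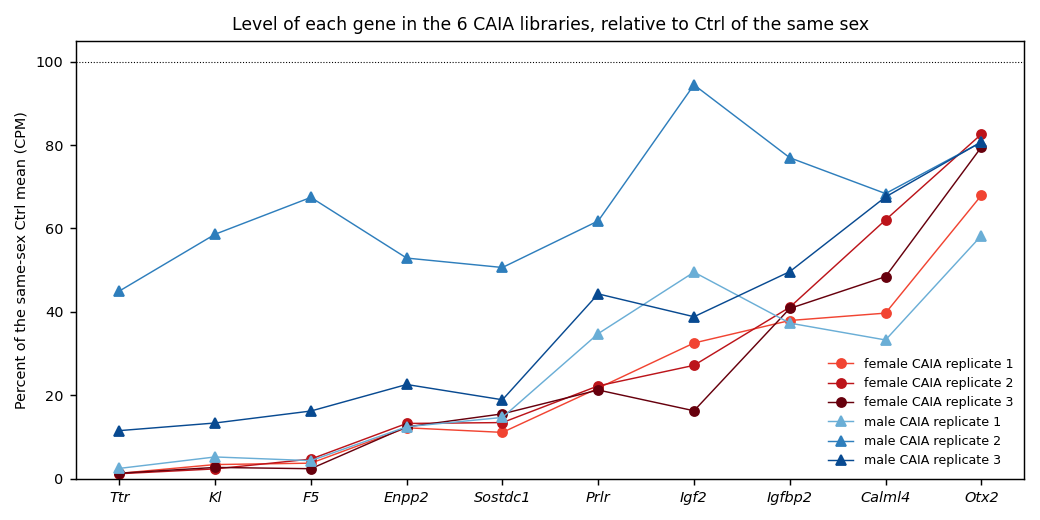
CPM of each gene in each of the 6 CAIA libraries as a percent of the Ctrl mean of the same sex, with 1 line per library and genes ordered by their median. The 3 female libraries and male CAIA replicate 1 lie close together from Ttr to Sostdc1, and male CAIA replicate 2 stays above 40% for every gene.

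The 10 genes did not fall in proportion. How much of each transcript came from cells other than choroid plexus was not tested. Relative to the Ctrl mean of the same sex, female CAIA libraries held 1.27% of Ttr, 2.83% of Kl and 3.62% of F5. They held 12.6% of Enpp2 and 13.4% of Sostdc1, 21.8% of Prlr and 25.3% of Igf2. Igfbp2 was at 40.0%, Calml4 at 50.1% and Otx2 at 76.7%. In males the shares ran closer together, at 19.7% for Ttr, 25.7% for Kl, 28.1% for Sostdc1, 29.3% for Enpp2 and F5, 47.0% for Prlr, 54.6% for Igfbp2, 56.4% for Calml4, 60.9% for Igf2 and 73.2% for Otx2. Without male CAIA 2, the other male CAIA libraries held 7.01% of Ttr, 9.30% of Kl, 10.3% of F5, 16.8% of Sostdc1 and 17.5% of Enpp2, then 39.6% of Prlr, 43.5% of Igfbp2, 44.2% of Igf2, 50.4% of Calml4 and 69.5% of Otx2. Ttr was lowest and Otx2 highest in both sexes.

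The order of levels between genes was read from TPM (counts per exonic length, scaled to the library). In the Ctrl libraries Ttr averaged 7408 ± 2295 TPM and Enpp2 821 ± 222 TPM, ahead of Igfbp2 at 143 ± 10.3 and Sostdc1 at 124 ± 34.2 TPM (SD, n = 5). Kl followed at 49.8 ± 16.1, Otx2 at 28.2 ± 6.37, F5 at 18.5 ± 6.47, Prlr at 9.69 ± 3.98, Calml4 at 7.79 ± 1.498 and Igf2 at 1.87 ± 0.489 TPM (SD, n = 5). Igfbp2 and Sostdc1 lay within their spread of each other, as did Prlr and Calml4. In the female CAIA libraries the order was another one: Enpp2 at 104 ± 6.83 TPM stood above Ttr at 88.3 ± 2.98, then came Igfbp2 at 57.1 ± 3.54 and Otx2 at 22.3 ± 2.66 TPM (SD, n = 3). Kl, the fifth in Ctrl, was at 1.47 ± 0.246 TPM there, below Prlr at 2.46 ± 0.104 TPM (SD, n = 3).

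Ratios to Ttr were taken to see whether the genes kept their proportions from library to library. Ttr itself spanned 122-fold over the libraries, 43.9-fold within the CAIA libraries and 2.24-fold within Ctrl. Among the 5 Ctrl libraries the ratios were fairly steady, with the highest 1.31 times the lowest for Sostdc1 and 3.19 times for Prlr, the extremes of the 9 genes. Across CAIA libraries they were not. Enpp2 had 577 to 6372 counts per 1000 Ttr counts in CAIA libraries, against 430 to 627 in Ctrl libraries, and Otx2 had 21.2 to 1027 in CAIA libraries, against 11.01 to 19.3 in Ctrl libraries. Kl had 51.7 to 155 in CAIA libraries, against 33.8 to 71.8 in Ctrl libraries, and F5 had 17.9 to 69.7 in CAIA libraries, against 8.56 to 19.8 in Ctrl libraries.

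All 9 ratios were higher in CAIA (exact permutation test within sex, two-sided, 200 arrangements, p = 0.005 to 0.02, 0.005 being the smallest p possible). Because Ttr fell so far, 99.9% of all genes had a higher ratio by the same test, so the count of 9 says nothing particular about these genes, and their sizes are given as a description. The ratio was 1.81-fold higher in CAIA for Kl and 2.10-fold for F5. It was 4.69-fold higher for Enpp2, 4.77-fold for Sostdc1, 8.50-fold for Prlr, 10.0-fold for Igf2, 11.96-fold for Igfbp2, 13.5-fold for Calml4 and 19.6-fold for Otx2. On the log2 scale the median of all genes was 4.71, which Otx2 at 4.30 came near and Kl at 0.86 and F5 at 1.07 did not. The ratio was above that of every Ctrl library in every CAIA library for 2 genes, Igf2 and Otx2, and for 83.0% of all genes. The ratio of Kl rested partly on male Ctrl 1, without which it was 0.67 on the log2 scale.

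**Figure D4:**
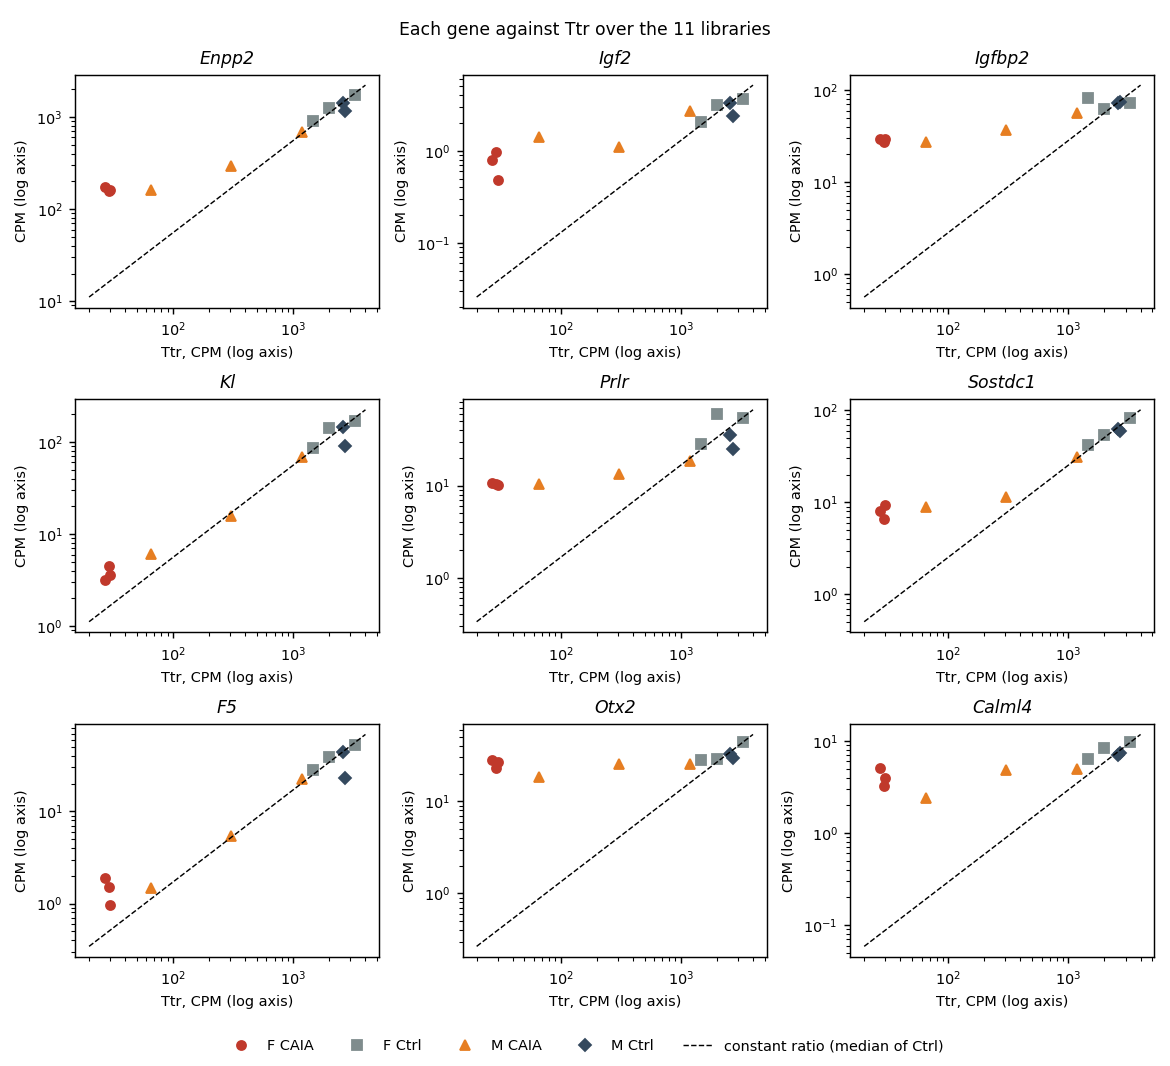
CPM of each of the 9 other genes against CPM of Ttr in every library, both on log axes, with a dashed line for the median ratio of the 5 Ctrl libraries. Kl and F5 stay closest to the line over the whole range of Ttr, while Otx2 and Calml4 have the flattest slopes (0.07 and 0.17 on log axes).

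Library by library, male CAIA 2, with the most Ttr among CAIA libraries, had 7 of 9 ratios within the range of the Ctrl libraries, all but Igf2 and Otx2. Male CAIA 3 had 2, Kl and F5. In male CAIA 1 and the 3 female CAIA libraries all 9 were above that range. Few counts stood behind the lowest of these: the ratio of F5 in male CAIA 1 was 22.3 per 1000 with a 95% exact binomial interval of 15.6 to 30.8, which reaches into the Ctrl range, and in female CAIA 3 it was 32.2 (21.3 to 46.9). These intervals cover counting error only.

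A straight line of each gene's CPM on that of Ttr over the 11 libraries gave an intercept, a level extrapolated to no Ttr. The residual SD was 21.3 CPM for Kl, 7.22 for F5 and 10.7 for Prlr, above their intercepts of 5.63, 2.17 and 10.4 CPM. For the rest it was below the intercept. The female CAIA means of Kl and F5, 3.75 and 1.45 CPM, lay below their intercepts. So did those of Igfbp2 (28.8 against 32.1 CPM), Igf2 (0.748 against 0.990) and Prlr (10.33 against 10.35). The intercepts of these genes are thus not levels left. As a share of the Ctrl mean the intercept was 4.44% for Kl, 5.79% for F5, 11.6% for Sostdc1 and 12.2% for Enpp2. It was 25.5% for Prlr, 33.9% for Igf2, 44.2% for Igfbp2, 47.9% for Calml4 and 70.2% for Otx2. The slopes on log axes, where 1 is proportion, were 0.80 for Kl, 0.76 for F5, 0.48 for Enpp2 and 0.47 for Sostdc1, and between 0.07 (Otx2) and 0.30 (Igf2, Prlr) for the rest. Pearson's r of log2 CPM with Ttr was 0.991 for Kl, 0.979 for F5, 0.977 for Enpp2, 0.967 for Sostdc1 and 0.627 for Otx2 over the 11 libraries. On deviations from the 4 group means it was 0.955 for Kl, 0.934 for F5, 0.967 for Enpp2, 0.898 for Sostdc1 and 0.542 for Igf2, the lowest. These correlations are descriptions over libraries whose genes share depth and dissection.

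The starts of the genes that kept nearest to proportion with Ttr, Kl and F5, are shown beside that of Otx2, the one furthest from it. All 3 were chosen after their values were seen. The table held 4 windows for Otx2, and the one shown was picked for its motif match. It lies inside the gene, whose 5′ end in the counted annotation is at 48673819, and the other 3 windows of Otx2 held no match. The 250 bases before the start come from RefSeq on GRCm38.p6, whose promoter table held 7 of the 10 genes. Each is written 5′ to 3′ on the gene's own strand: Kl at chr5:150952357-150952606 (plus), F5 at chr1:164151585-164151834 (plus) and Otx2 at chr14:48665110-48665359 (minus). Capitals mark the OTX2 core motif TAATCC, or GGATTA on the other strand.
Kl: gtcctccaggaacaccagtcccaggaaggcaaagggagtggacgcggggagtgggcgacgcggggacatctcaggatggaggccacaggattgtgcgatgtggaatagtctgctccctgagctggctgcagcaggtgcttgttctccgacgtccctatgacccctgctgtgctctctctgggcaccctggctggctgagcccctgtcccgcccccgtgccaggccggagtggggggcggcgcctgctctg
F5: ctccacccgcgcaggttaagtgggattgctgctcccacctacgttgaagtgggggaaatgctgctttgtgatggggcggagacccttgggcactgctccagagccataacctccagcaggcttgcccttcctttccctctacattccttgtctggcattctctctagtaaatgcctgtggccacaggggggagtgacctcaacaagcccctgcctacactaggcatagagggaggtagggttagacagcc
Otx2: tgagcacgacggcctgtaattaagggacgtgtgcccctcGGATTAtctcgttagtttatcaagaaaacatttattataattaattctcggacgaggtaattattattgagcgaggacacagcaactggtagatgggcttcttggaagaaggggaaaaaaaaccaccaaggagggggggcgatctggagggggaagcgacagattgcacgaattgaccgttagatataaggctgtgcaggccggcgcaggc
Of the 16 windows of the 7 genes, this 1 of Otx2 held the motif, 211 bases before the start, and 6.25% of all 32851 windows of the table did. The Kl window had 66.8% G and C with 13 CpG, the F5 window 57.2% with 4 and the Otx2 window 48.4% with 14. A match is only a string of letters, and its absence says nothing about the factor.

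The genes whose log2 CPM over the 11 libraries was most like each of these were looked for among 15546 others. For Ttr it was Kcne2 (Pearson's r = 0.994), followed by Tmem72 and Aqp1. For F5 it was Mfrp, at 0.999, for Kl Npr3 at 0.992, for Enpp2 Slc4a5 at 0.994 and for Sostdc1 Pcolce at 0.993. Igfbp2 was most like Slc4a5 (0.980), Prlr most like Col1a1 (0.976) and Igf2 most like Prdm16 (0.960). Otx2 was nearest to Mospd1 at 0.946 and Calml4 to Gm44250 and Krt18 at 0.952.

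The 10 genes were set beside 18 other markers of choroid plexus epithelium. That list was chosen with earlier results of these data known, so it is no independent check of the label. All 18 were lower in CAIA by fitted value, 8 of which passed, with a median log2 fold change of -2.44. Otx2 and Calml4 followed Ttr least over the libraries, with Pearson's r of 0.627 and 0.818, and the ratios of these 2 and Igfbp2 to Ttr were the closest to the median of all genes. Of the 18 markers, those with the lowest p were Kcne2 at -3.74 ± 0.52, Steap1 at -2.02 ± 0.36, Trpv4 at -2.67 ± 0.41 and Car12 at -2.98 ± 0.44 (log2, SE, adjusted p = 0.0249 to 0.0364). These 4 calls were lost without either male Ctrl, female Ctrl 2 or 3, male CAIA 3 or any female CAIA library (adjusted p = 0.0557 to 0.157), and that of Car12 also without female Ctrl 1 (0.0627). The summed level of all 18 markers was 68.8 to 259 CPM in CAIA libraries, against 336 to 568 CPM in Ctrl libraries. Among CAIA libraries it was highest in male CAIA 2. Against Ttr, 14 of the 18 had a higher ratio in CAIA (exact permutation p under 0.05), against the 99.9% of all genes given above, and the ratios ran between -0.79 for Tmem72 and 4.13 for Rdh5 on the log2 scale. With the geometric mean of the 18 as denominator in place of Ttr, the ratios of Kl and F5 turned round, at -1.13 and -0.92 (exact permutation p = 0.015 and 0.02). Those of Enpp2 and Sostdc1 no longer passed, at 0.24 and 0.27 (exact permutation p = 0.13 and 0.285). The other 5 passed at smaller sizes, 1.10 for Prlr, 1.33 for Igf2, 1.59 for Igfbp2, 1.77 for Calml4 and 2.30 for Otx2, against a median of 2.72 over all genes, of which 98.6% were higher and 0.0612% lower by this test.

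Markers of neighbouring tissue moved with some libraries. Summed pineal markers were 15.0 to 76.6 CPM in CAIA libraries, against 15.2 to 34.8 CPM in Ctrl libraries, with 74.1 in female CAIA 2 and 76.6 in male CAIA 3. The defining gene Tph1 had 456 and 533 counts in those 2 libraries, and 0 in male CAIA 2 and male Ctrl 3. Without both libraries, a step chosen after seeing the data, none of the 10 genes passed over both sexes. That fit called 0.00518% of all genes lower, against 0.576% with all libraries, so the loss of calls was not particular to the 10. Their log2 fold changes were -4.16 for Ttr, -2.32 for Enpp2, -1.64 for Prlr, -1.08 for Igfbp2 and -0.49 for Otx2. The part of the pineal markers in the result was not tested. Meningeal markers summed to 462 to 520 CPM in CAIA libraries, against 466 to 558 CPM in Ctrl libraries, most of it from Nnat and Pdgfra. Ependymal markers summed to 82.6 to 139.7 CPM in CAIA libraries, against 100.3 to 150.4 CPM in Ctrl libraries. Lateral habenula markers summed to 867 to 1031 CPM in CAIA libraries, against 830.5 to 927 CPM in Ctrl libraries. By fitted value, 8 of the 12 meningeal genes were lower in CAIA over both sexes and 11 in females. Col1a1 had 13.8 to 17.1 CPM in CAIA libraries, against 18.2 to 21.6 CPM in Ctrl libraries, without overlap. Lum and Col1a2 had log2 fold changes of -0.86 and -0.46, which did not pass (adjusted p = 0.216 and 0.219). The part of these genes in the result was not tested. Of the 12 meningeal genes 1 passed, Col1a1, with a fall of 0.37 ± 0.08, and of the 8 endothelial genes 1, Kdr, with a fall of 0.49 ± 0.10 (log2, SE, adjusted p = 0.0469 and 0.0453), and both calls were lost in most fits without 1 library.

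No gene passed among the 12 pineal, 8 ependymal, 10 oligodendrocyte, 8 astrocyte, 8 microglial, 8 medial habenula, 8 lateral habenula or 8 thalamic markers. The lowest p in each list belonged to Aanat and Sag (log2 fold changes of -0.48 and 1.77), Rsph1 and Foxj1 (-0.22 and -0.13), Mag and Ermn (-0.13 and 0.13), Gja1 and Aqp4 (0.19 and 0.23). In the other lists it belonged to Csf1r (0.16), Tac1 and Chrnb3 (0.11 and 0.07), Peg10 and Cartpt (0.26 and -0.27), and Lef1 and Rorb (-0.17 and -0.08), with adjusted p of 0.542 to 0.967 over these 15 genes.

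**Figure D5:**
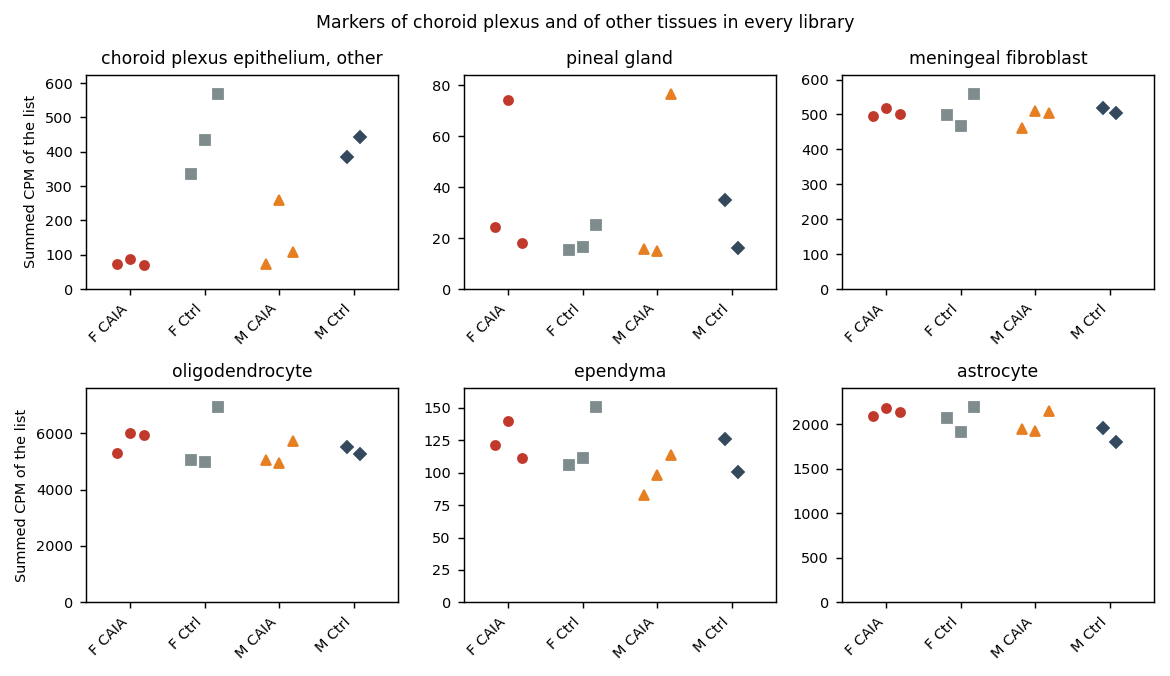
Summed CPM of 6 marker lists in every library, on linear axes from 0. The choroid plexus list is lower in all 6 CAIA libraries, the pineal list is high in female CAIA replicate 2 and male CAIA replicate 3, and the other 4 lists overlap between CAIA and Ctrl.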

How the data were processed

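The deposited file holds whole-number read counts per gene for 11 libraries. Per the submitters' processing notes, the authors used the tools featureCounts 1.5.0-p3, cutadapt 1.9.1 and HISAT2 2.0.5 with the genome build GRCm38. The sources used here do not give the strand setting or annotation release of the counting, and overlapping genes may share reads. Library totals were 25317306 to 29565006 counts.

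Genes passing filterByExpr (19619) were TMM-scaled and fitted as 4 group means in edgeR 4.0.16 (R 4.3.3) with robust glmQLFit and glmQLFTest, with Benjamini-Hochberg adjustment over all of them. DESeq2 1.42.0 and limma 3.58.1 were alternatives. Ratios to Ttr were tested by exact permutation within sex with a pseudocount of 0.5. The line on Ttr was fitted by least squares. TPM used exon-union lengths of GENCODE M21, which held 54409 of the identifiers. Scripts were tested on simulated data. Figures were drawn with matplotlib 3.10.9.

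The members and the 19 other lists were chosen with earlier results of these data known. All members are named. From each other list up to 4 passing genes of lowest p are named, or the 2 of lowest p where none passed. Some genes that this rule names are not reported here. Libraries with the same number did not deviate together (correlations of -0.198 to 0.0237). No pairing by number was seen, but low correlations over all genes cannot exclude one. Within groups, chi-square per degree of freedom was 6.59 to 27.7, so no library was a duplicate.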

Additional observations from a re-analysis of the deposited data

Results flagged for a closer look

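Among the 6 CAIA libraries, male CAIA 2 stood apart at the high end for 6 genes: its gap to the next library, as a share of the range of the group, was 0.761 for Ttr, 0.745 for Enpp2, 0.687 for Igfbp2, 0.809 for Kl, 0.798 for Sostdc1 and 0.793 for F5, above the critical value of 0.625. Among the 5 Ctrl libraries, female Ctrl 3 stood apart at the high end for Otx2, with 0.713 against a critical value of 0.71. Both sexes were pooled in these groups. Chance flags about 1 in 20 groups, and the 6 flags of male CAIA 2 come from genes whose levels are correlated, so they are not independent.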

How the results depend on the processing

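The fold changes over both sexes of the 10 genes were negative under every alternative run. The number passing was less steady. Without a count filter edgeR called 10 over both sexes, 9 in females, 8 in males and 6 for the sex difference. Of all genes, 0.825%, 1.15%, 0.349% and 0.854% were called lower in these comparisons. The prior degrees of freedom were infinite in that fit and some adjusted p were 0, so these calls ignore the spread of single genes. With the newer variance estimate of edgeR, chosen after seeing the data, the unfiltered fit had finite values. It called 1 in females, where 0.218% of all genes were called lower. In females DESeq2 called 9 (and 0.857% of all genes lower), limma-voom 7 (0.331%), limma-voom with quality weights 8 (0.586%) and the female libraries alone 8 (0.58%). In males DESeq2 called 1 (0.199% lower, 0.229% higher). Leave-one-out counts were 0 to 9 for both sexes, 0 to 9 for females and 0 to 3 for males. Without female CAIA 2 and male CAIA 3 the number was 0 over both sexes and 0 in females, where 0.00518% and 0% of all genes were called lower. With a replicate block, which pairs libraries of the same sex and number, it was 9 for both sexes, 6 for females and 5 for males (0.637%, 0.418% and 0.158% of all genes lower). No pairing by number was seen in the data. Male CAIA 2 has no Ctrl library of its number, so it adds nothing to the fold changes of that fit. Sign flips over the same pairs called 0 ratios, since their smallest two-sided p was 0.0625. With the other choroid plexus markers as denominator, the log2 ratio was -1.13 for Kl and -0.919 for F5, and those of Enpp2 (0.24, exact permutation p = 0.13) and Sostdc1 (0.265, p = 0.285) no longer passed. The sex difference of Calml4 turned to 0.164 with quality weights and 0.0459 with the block, and that of Otx2 was -0.0715 to 0.302 over the leave-one-out fits, negative without male Ctrl 3, female Ctrl 1, female Ctrl 2 or male CAIA 1. The cause was not tested. Depth limits Igf2 and F5 most, with as few as 14 and 28 counts in a library.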
